A study of Rattus norvegicus with 15 samples.

Results

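The mitochondrial solute carriers are the SLC25 family of membrane proteins, and their transcripts were compared between epididymal fat of diet-induced obese and lean rats. Members were all genes whose symbol starts with Slc25a and that a probe set named alone, without the citrate carrier Slc25a1 and the carnitine/acylcarnitine carrier Slc25a20, and the brightest probe set stood for each gene. This gave 38 genes with 56 probe sets among the 14217 genes that probe sets named alone. Another 2 probe sets named a carrier together with other genes and were left out. Of the 38 carriers, 31 had a mean signal above a filter set at the 40th percentile of all probe sets and were tested, and 7 lay below it.

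SLC25 carriers sit mostly in the inner mitochondrial membrane, which small charged metabolites do not cross unaided. They exchange ADP for ATP, bring in phosphate, pass malate, aspartate, glutamate and other acids between mitochondrion and cytosol, and supply coenzymes, iron and glutathione. In fat cells such exchange feeds respiration and carries reducing equivalents and carbon for fatty acid synthesis.

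The study profiled male Long-Evans rats of a private colony on Affymetrix arrays, 1 array per rat. The 7 obese rats had been fed a high fat/high sucrose diet since weaning and the 8 lean rats a regular chow. The rats were killed fed, at an age of 26 weeks, and the epididymal fat was taken whole. Diet and obesity cannot be told apart in this design, and in a whole tissue fewer cells of a type cannot be told apart from less RNA per cell.

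One pair of arrays stood apart before any comparison. Obese rat 1 and lean rat 7 correlated at r = 0.978 over all probe sets, whereas the 104 other pairs lay between 0.908 and 0.957. Over the 31 carriers the median absolute log2 difference between these arrays was 0.0667, against 0.122 to 0.397 in the other pairs. The comparison is therefore given with all 15 arrays and without this pair, and a value given once is that with all arrays. All 10 fat cell markers were above the filter, and the 6 male germ cell markers were all below it, as was the only epididymal epithelium marker on the array. The 16 macrophage markers all had higher means in obese rats in the scaling used (15 of 16 after quantile normalization), with a summed signal of 143376 to 349610 in obese and 118455 to 178720 in lean rats and none at 0 (log2 difference 0.57, exact permutation p = 0.0014, adjusted over 11 array measures 0.0128). The summed brown fat markers were higher too (log2 difference 0.44, exact permutation p = 0.00233, adjusted 0.0128), but only 2 of the 6 were above the filter, Cidea with a difference of 0.51 and Ppargc1a with -0.34. Ucp1, Cox7a1, Cox8b and Elovl3 were below it. Cidea made up most of the brown fat sum, with signals of 11571 to 23348 in obese rats beside sums of 13027 to 24870. The median log2 signal of all probe sets was 0.10 lower in obese rats (exact permutation p = 0.0204, adjusted 0.0746). The Gapdh 3' to 5' log2 ratio, a measure of RNA integrity in which a higher value means more loss of the 5' end, averaged 1.05 ± 0.26 in the 8 lean rats and 0.77 ± 0.28 in the 7 obese rats, both with SD (exact permutation p = 0.0746, adjusted 0.205). The part of these cell and array measures in the carriers' differences was not tested, except that the Gapdh ratio was entered as a covariate in an alternative fit.

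None of the 31 carriers passed limma's adjusted p of 0.05 in either set of arrays. The adjusted p ran from 0.167 (Slc25a22) to 0.981 with all arrays and from 0.0996 (Slc25a22) to 0.981 without the pair. Over all 18625 probe sets tested the same threshold called 0% with all arrays and 1.01% without the pair. At an unadjusted limma p under 0.05 there were 7 of 31 carriers, 22.6%, in each set, beside 15.6% of all probe sets with all arrays and 17.8% without the pair. With all arrays that count was 3 without obese rat 6 and 4 without obese rat 8 or lean rat 3. In both sets those 7 were Slc25a4, Slc25a22 and Slc25a39 with higher means in obese rats and Slc25a27, Slc25a44, Slc25a48 and Slc25a53 with lower means. For every tested carrier the signals of obese and lean rats overlapped, and 0.193% of all probe sets with all arrays and 1.45% without the pair had groups that did not overlap.

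The difference exceeded the carrier's own within-group SD for 8 of 31 carriers in each set. These were the carriers with an unadjusted p under 0.05 and Slc25a5. The share of all probe sets with such a difference was not counted, so whether that number is unusual is not known. In both sets 13 carriers had a positive and 18 a negative log2 difference, obese minus lean, but 21 were positive when each array was centred on its median. That centring moved the median of all probe sets by 0.10 with all arrays and by 0.12 without the pair. Measured against the median of all probe sets, 15 carriers lay above and 16 below with all arrays, and 17 above and 14 below without the pair, under either scaling. The median carrier difference was -0.04 with all arrays and -0.02 without the pair, beside -0.04 and -0.04 for all probe sets. The 95% interval of the difference lay within 1.5-fold either way for 23 of 31 carriers with all arrays and for 21 without the pair, and within 2-fold for 30 in both. The within-group SD of the log2 signal was 0.25 at the median carrier and ran from 0.12 to 0.69, the highest being that of Slc25a14. All 31 carriers kept their sign without the pair, and 27 of them lay farther from 0.

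**Figure D1:**
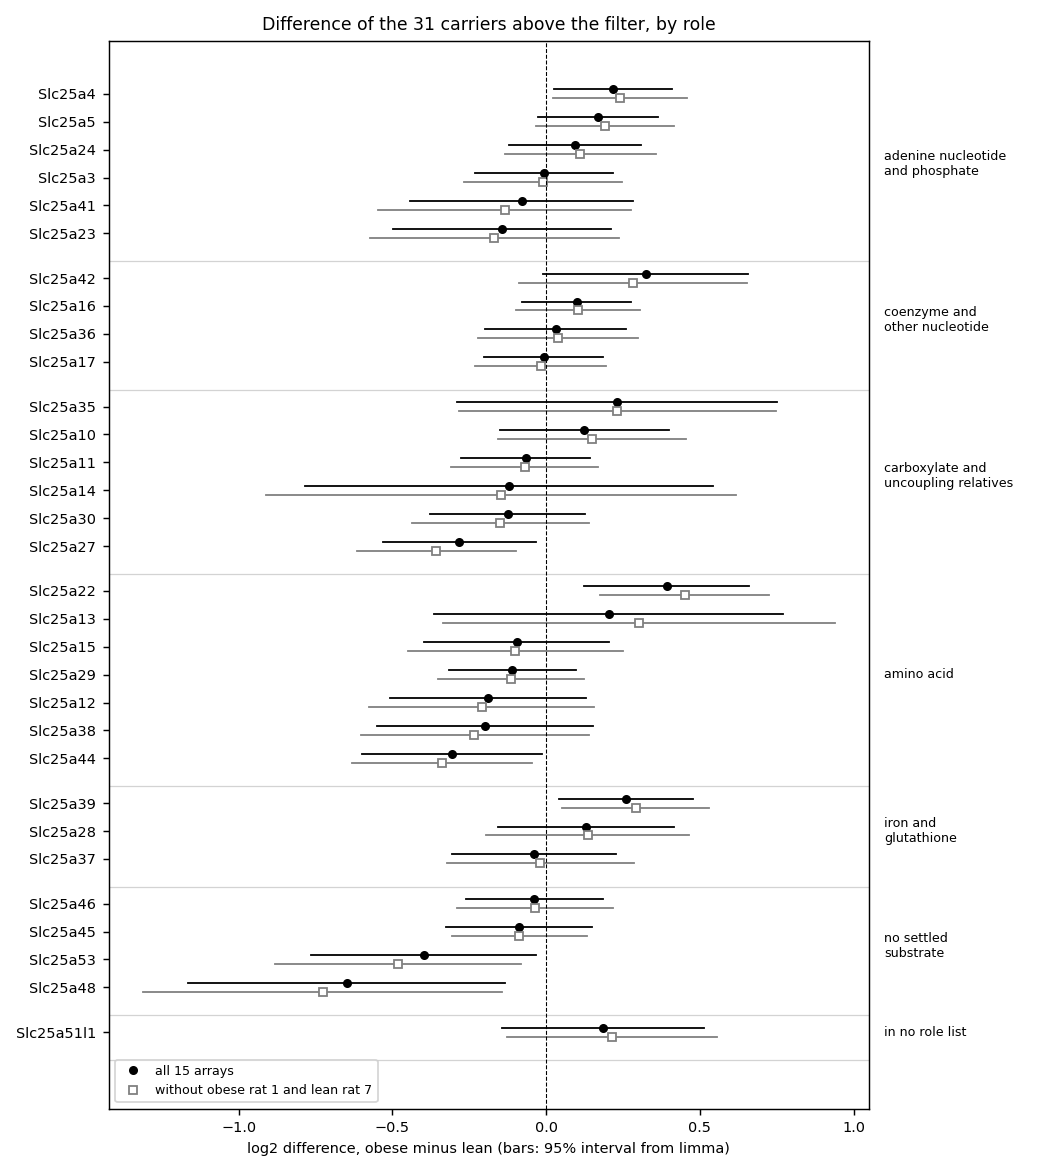
Log2 difference (obese minus lean) on the x axis for each of the 31 carriers above the filter on the y axis, grouped by role, with 95% intervals from limma; filled circles use all 15 arrays and open squares leave out obese rat 1 and lean rat 7. Most intervals cross 0, and Slc25a22 lies farthest out on the positive and Slc25a48 on the negative side; with arrays centred on their medians 21 carriers would be positive in place of 13.

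The adenine nucleotide and phosphate carriers supply ATP synthase and export its product. Of 8 on the array, 6 were above the filter, and 3 of these had positive and 3 negative differences (median 0.04 with all arrays and 0.05 without the pair), but 5 and 4 were positive with median centring. Slc25a4, the ADP/ATP carrier typical of muscle and heart, had signals of 11382 to 14219 (median 12828) in lean and 12118 to 17318 (median 15246) in obese rats. In this gene 5 obese rats exceeded every lean rat, while the lowest obese value, in rat 5, lay within the lean range. The log2 difference was 0.22 ± 0.09 (SE, limma adjusted p = 0.261) with all arrays and 0.24 ± 0.10 (adjusted p = 0.234) without the pair, and 0.14 and 0.15 with quantile normalization. Slc25a5, the ADP/ATP carrier of most other tissues, ran from 33954 to 40643 (median 37121) in lean and from 37151 to 52292 (median 39413) in obese rats. Obese rats 3, 6 and 7 stood above all lean rats and the other obese rats fell among them. Its log2 difference was 0.17 ± 0.09 (SE, limma adjusted p = 0.389) with all arrays and 0.19 ± 0.11 (adjusted p = 0.355) without the pair. It was 0.06 and 0.07 with quantile normalization and 0.27 and 0.31 with median centring.

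Slc25a3, which carries phosphate into the matrix and also copper, ran from 26814 to 41690 (median 37878) in lean and from 29997 to 41858 (median 35119) in obese rats. The groups covered nearly the same range, and rat 8 was the lowest in each. On the log2 scale obese rats differed from lean by -0.01 ± 0.11 (SE, limma adjusted p = 0.981), and its sign turned with median centring, the Gapdh covariate and several left-out rats. The ATP-Mg/phosphate carriers Slc25a23, Slc25a24 and Slc25a41 had differences of -0.14, 0.09 and -0.08 with all arrays, each with a 95% interval that crosses 0. Slc25a23 and Slc25a41 are neighbours on chromosome 9 in RefSeq's gene order. Slc25a25, the stress-responsive member of that group, lay below the filter. Its signals were 60.4 to 640.5 (median 134) in lean and 133.7 to 839.9 (median 442) in obese rats. The log2 difference, 0.71 with all arrays and 0.63 without the pair, was not tested. The ADP/ATP carrier of germ cells, Slc25a31, was also below the filter, with 67.1 to 466.2 over both groups.

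The promoter windows of the ADP/ATP carrier pair are shown because both genes had higher obese means, and those of Slc25a22 and Slc25a27 because they had the smallest p without the pair among carriers with a positive and a negative difference. Each is the 250 bases before the gene's start in RefSeq, build GRCr8, written 5' to 3' on the gene's strand, with motif matches in capitals. The windows are chr16:52805271-52805520, plus strand, for Slc25a4; chrX:120897366-120897615, plus strand, for Slc25a5; chr1:205965878-205966127, minus strand, for Slc25a22; and chr9:24804058-24804307, plus strand, for Slc25a27.
Slc25a4: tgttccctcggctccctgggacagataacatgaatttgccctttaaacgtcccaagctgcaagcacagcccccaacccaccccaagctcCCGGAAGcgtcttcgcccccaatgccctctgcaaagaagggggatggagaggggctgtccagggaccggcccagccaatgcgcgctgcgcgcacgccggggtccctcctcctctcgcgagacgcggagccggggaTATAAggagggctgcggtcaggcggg
Slc25a5: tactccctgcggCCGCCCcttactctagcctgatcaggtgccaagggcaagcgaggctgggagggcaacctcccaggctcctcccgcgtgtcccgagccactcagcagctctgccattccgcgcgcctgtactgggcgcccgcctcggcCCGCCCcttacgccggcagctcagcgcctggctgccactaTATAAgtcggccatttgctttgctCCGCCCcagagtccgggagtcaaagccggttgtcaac
Slc25a22: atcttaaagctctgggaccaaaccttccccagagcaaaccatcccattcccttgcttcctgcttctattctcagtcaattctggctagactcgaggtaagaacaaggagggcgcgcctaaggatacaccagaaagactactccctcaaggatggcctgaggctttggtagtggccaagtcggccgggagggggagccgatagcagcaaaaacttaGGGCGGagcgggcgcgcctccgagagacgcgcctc
Slc25a27: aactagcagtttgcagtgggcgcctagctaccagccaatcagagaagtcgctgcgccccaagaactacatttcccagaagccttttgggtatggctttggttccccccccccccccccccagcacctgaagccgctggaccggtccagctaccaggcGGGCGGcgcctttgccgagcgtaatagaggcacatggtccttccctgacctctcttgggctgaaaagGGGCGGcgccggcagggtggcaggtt

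The motifs, searched on both strands, were GCATGCG for nuclear respiratory factor 1, CCGGAAG for GA-binding protein, AAGGTCA for the estrogen-related receptors, GGGCGG for the GC box and TATAA for the TATA box, the last added after the windows had been seen. None of the motifs is contained in another, and no matches overlap in the windows shown. Slc25a4 held a GA-binding protein match and a TATAA, Slc25a5 a TATAA and 3 GC boxes, Slc25a22 a single GC box and Slc25a27 a pair of GC boxes. Windows were found for 32 of the 38 carriers, and 19 of them (59.4%) held a GC box, against 33.5% of 27457 genes. Those 27457 are all genes with a RefSeq window, whether or not they are on the array or above the filter, so the shares come from unlike sets. A nuclear respiratory factor 1 match stood in 3 carriers (9.38%, against 3.3% of genes), namely Slc25a13, Slc25a31 and Slc25a44. GA-binding protein matches stood in 4 (12.5%, against 8.11%), an estrogen-related receptor match in Slc25a34 alone (3.12%, against 4.17%) and TATAA in 4 (12.5%, against 25.6%), namely Slc25a4, Slc25a5, Slc25a38 and Slc25a48. These counts describe letters in the windows, not bound sites.

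The amino acid carriers include the largest positive difference of a tested carrier. Slc25a22, which brings glutamate into mitochondria together with a proton, had signals of 2057 to 3820 (median 2760) in lean and 3114 to 4162 (median 3772) in obese rats. All 7 obese rats lay above the lean median and 5 lean rats lay below every obese rat. The highest lean value was that of lean rat 7, 3820, beside 3772 in obese rat 1. The log2 difference was 0.39 ± 0.13 (SE, limma adjusted p = 0.167) with all arrays, a 1.31-fold ratio, and 0.45 ± 0.13 (adjusted p = 0.0996) without the pair, a 1.37-fold ratio. With the Gapdh covariate it was 0.26 with all arrays. Over the alternatives without the pair it ran from 0.27 with that covariate to 0.57 with median centring, and the adjusted p from 0.0533 to 0.366.

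Slc25a44, a carrier of branched-chain amino acids, leaned the other way. Its signals were 1333 to 2074 (median 1768) in lean and 996 to 1855 (median 1357) in obese rats. Obese rats 5, 7 and 8 lay below all lean rats, and the highest of each group were obese rat 1 and lean rat 7. On the log2 scale obese minus lean was -0.31 ± 0.14 (SE, limma adjusted p = 0.302) with all arrays and -0.34 ± 0.14 (adjusted p = 0.216) without the pair, and a second probe set gave -0.13 and -0.19. Without the pair it was -0.22 with median centring. Slc25a38, which supplies glycine for haem synthesis, ran from 806 to 1903 (median 1375) in lean and from 911 to 1625 (median 1037) in obese rats. The obese rats lay inside the lean range, and the log2 difference was -0.20 ± 0.17 (SE, limma adjusted p = 0.590) with all arrays and -0.23 ± 0.17 (adjusted p = 0.514) without the pair. The Gapdh covariate brought it to -0.05 with all arrays and to -0.004 without the pair, and with all arrays it was -0.12 without lean rat 5 and -0.10 with median centring.

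The aspartate/glutamate carriers Slc25a12 and Slc25a13 are the 2 forms of the step that drives the malate-aspartate shuttle. Slc25a12 ran from 659 to 1533 (median 1088) in lean and from 686 to 1130 (median 869) in obese rats. All obese rats lay within the lean range, and obese minus lean came to -0.19 ± 0.15 on the log2 scale (SE, limma adjusted p = 0.570) with all arrays and to -0.21 ± 0.17 (adjusted p = 0.556) without the pair. With all arrays it was -0.11 without lean rat 1 or with quantile normalization, and -0.09 with median centring. Slc25a13 ran from 165 to 876 (median 697) in lean and from 490 to 1229 (median 536) in obese rats. Its obese median was the lower, yet the mean log2 difference was 0.20 ± 0.27 (SE, limma adjusted p = 0.757) with all arrays and 0.30 ± 0.30 (adjusted p = 0.636) without the pair, since lean rats 4 and 5 were far below the rest at 278 and 165 and obese rat 3 was highest. With all arrays the value was 0.01 without lean rat 5, 0.06 without obese rat 3 and 0.09 when lean rat 4 was left out. Its mean log2 signal in lean rats was 9.28 with all arrays and 9.22 without the pair, near the filter of 9.25. The other Slc25a13 probe set was below the filter, and averaged over its probe sets the gene fell below it too. The Slc25a13 to Slc25a12 log2 ratio differed by 0.39 between the groups (exact permutation p = 0.245, adjusted over 5 such ratios 0.447).

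The other tested amino acid carriers, Slc25a15 for ornithine and Slc25a29 for basic amino acids, had differences of -0.10 and -0.11. The glutamate carrier Slc25a18 was below the filter at 46.3 to 603.9. Of the 7 amino acid carriers tested, 2 had positive and 5 negative differences (median -0.11 in both sets), but 3 and 4 were positive with median centring, which put the median at -0.01 and 0.00.

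The carboxylate carriers move the acids of the citric acid cycle, and several relatives resemble the uncoupling proteins in sequence. Slc25a27, such a relative that is best known from brain, had signals of 743 to 1041 (median 792) in lean and 487 to 918 (median 677) in obese rats. The 5 obese rats other than 1 and 2 lay below every lean rat, and those 2 lay within the lean range. The log2 difference was -0.28 ± 0.12 (SE, limma adjusted p = 0.263) with all arrays and -0.36 ± 0.12 (adjusted p = 0.146) without the pair, and -0.18 with all arrays under median centring or quantile normalization. Its other 2 probe sets were below the filter. Averaged over its probe sets the gene also fell below the filter.

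Slc25a10, the dicarboxylate carrier that exchanges malate or succinate for phosphate, ran from 2095 to 3673 (median 2940) in lean and from 2491 to 3908 (median 3254) in obese rats. The groups overlapped along nearly their whole length, and obese minus lean came to 0.12 ± 0.13 on the log2 scale (SE, limma adjusted p = 0.684) with all arrays and to 0.15 ± 0.14 (adjusted p = 0.627) without the pair. With all arrays it was 0.06 without lean rat 1, 0.07 without obese rat 3, 0.23 with median centring and 0.27 with the Gapdh covariate. Slc25a11, the oxoglutarate/malate carrier of the malate-aspartate shuttle, ran from 5570 to 8047 (median 6755) in lean and from 5248 to 7672 (median 6545) in obese rats. Rat 8 was again the lowest of each group, and the log2 difference with all arrays, -0.07 ± 0.10 (SE, limma adjusted p = 0.792), turned positive with median centring and with the Gapdh covariate. The log2 ratio of Slc25a10 to Slc25a11 differed by 0.19 (exact permutation p = 0.103, adjusted 0.447) with all arrays and by 0.22 (exact permutation p = 0.06, adjusted 0.3) without the pair. Neither passed.

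The remaining tested relatives, Slc25a14, Slc25a30 and Slc25a35, had differences of -0.12, -0.13 and 0.23. Slc25a14 varied most between rats of all tested carriers, from 145 to 1204 in lean and from 347 to 1005 in obese rats, which is the range around the filter of 530.6. Slc25a34 and the oxodicarboxylate carrier Slc25a21 were below the filter, the former with 29.6 to 333 in obese and 95.3 to 547.4 in lean rats. Of the 6 tested in this group, 2 had positive and 4 negative differences (median -0.09 with all arrays and -0.11 without the pair), but 3 were positive with median centring, which put the median at 0.01 in both sets.

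Among the iron and glutathione carriers, Slc25a39, an importer of glutathione, had signals of 5823 to 8177 (median 6701) in lean and 7013 to 9590 (median 8322) in obese rats. All 7 obese rats lay above the lean median, and 4 of them, rats 3, 5, 6 and 7, exceeded every lean rat. Obese minus lean gave a log2 difference equal to 0.26 ± 0.10 (SE, limma adjusted p = 0.243) with all arrays and 0.29 ± 0.11 (adjusted p = 0.198) without the pair. A second probe set gave 0.16 and 0.19. At the brightest probe set quantile normalization gave 0.19 with all arrays and 0.21 without the pair, and the Gapdh covariate 0.44 without the pair. The mitoferrins, which bring iron in for haem and iron-sulphur clusters, had differences of 0.13 (Slc25a28) and -0.04 (Slc25a37), and their log2 ratio differed by 0.17 (exact permutation p = 0.338, adjusted 0.447).

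Of the coenzyme and nucleotide carriers, Slc25a42, which brings in coenzyme A, ran from 1097 to 2129 (median 1573) in lean and from 1425 to 3071 (median 1861) in obese rats. Obese rats 1 and 3 exceeded all lean rats, and the other five lay among them. The log2 difference was 0.32 ± 0.16 (SE, limma adjusted p = 0.339) with all arrays and 0.28 ± 0.17 (adjusted p = 0.416) without the pair. Leaving out obese rat 3 as well brought the latter to 0.15, and the Gapdh covariate to 0.43. Slc25a16, Slc25a36 and the peroxisomal carrier Slc25a17 had differences of 0.10, 0.03 and -0.01. The folate and flavin carrier Slc25a32 and the pyrimidine nucleotide carrier Slc25a33 were below the filter. Slc25a51l1, named after the NAD carrier Slc25a51, was in no role list and had a difference of 0.18 ± 0.16 (SE, limma adjusted p = 0.594).

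The list drawn up as carriers without a settled substrate was the only role list with no positive difference in the scaling used (0 of 4). With median centring 2 of 4 were positive. The median was -0.24 with all arrays and -0.28 without the pair, and -0.14 and -0.17 with median centring. At the brightest probe sets, Slc25a48 had the difference farthest from 0 of all tested carriers. Its signals were 692 to 1367 (median 894) in lean and 238 to 1052 (median 643) in obese rats, and obese rats 5 and 8 were far below the rest at 266 and 238. The fitted log2 difference was -0.65 ± 0.24 (SE, limma adjusted p = 0.223) with all arrays and -0.73 ± 0.27 (adjusted p = 0.186) without the pair. A second probe set, with medians of 682 in lean and 715 in obese rats, gave -0.01 ± 0.13 and 0.03 ± 0.13 (SE). The probe sets gave unlike values for this gene, and the mean over both gave -0.33 and -0.35.

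Slc25a53 ran from 1363 to 2603 (median 2081) in lean and from 998 to 2102 (median 1379) in obese rats. Of the lean rats 4 lay above every obese rat, and 3 obese rats below every lean rat. Its log2 difference was -0.40 ± 0.17 (SE, limma adjusted p = 0.284) with all arrays and -0.48 ± 0.19 (adjusted p = 0.201) without the pair, and -0.22 and -0.27 with the Gapdh covariate. Slc25a45 and the outer membrane protein Slc25a46, which takes part in mitochondrial fission and fusion, had differences of -0.09 and -0.04.

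**Figure D2:**
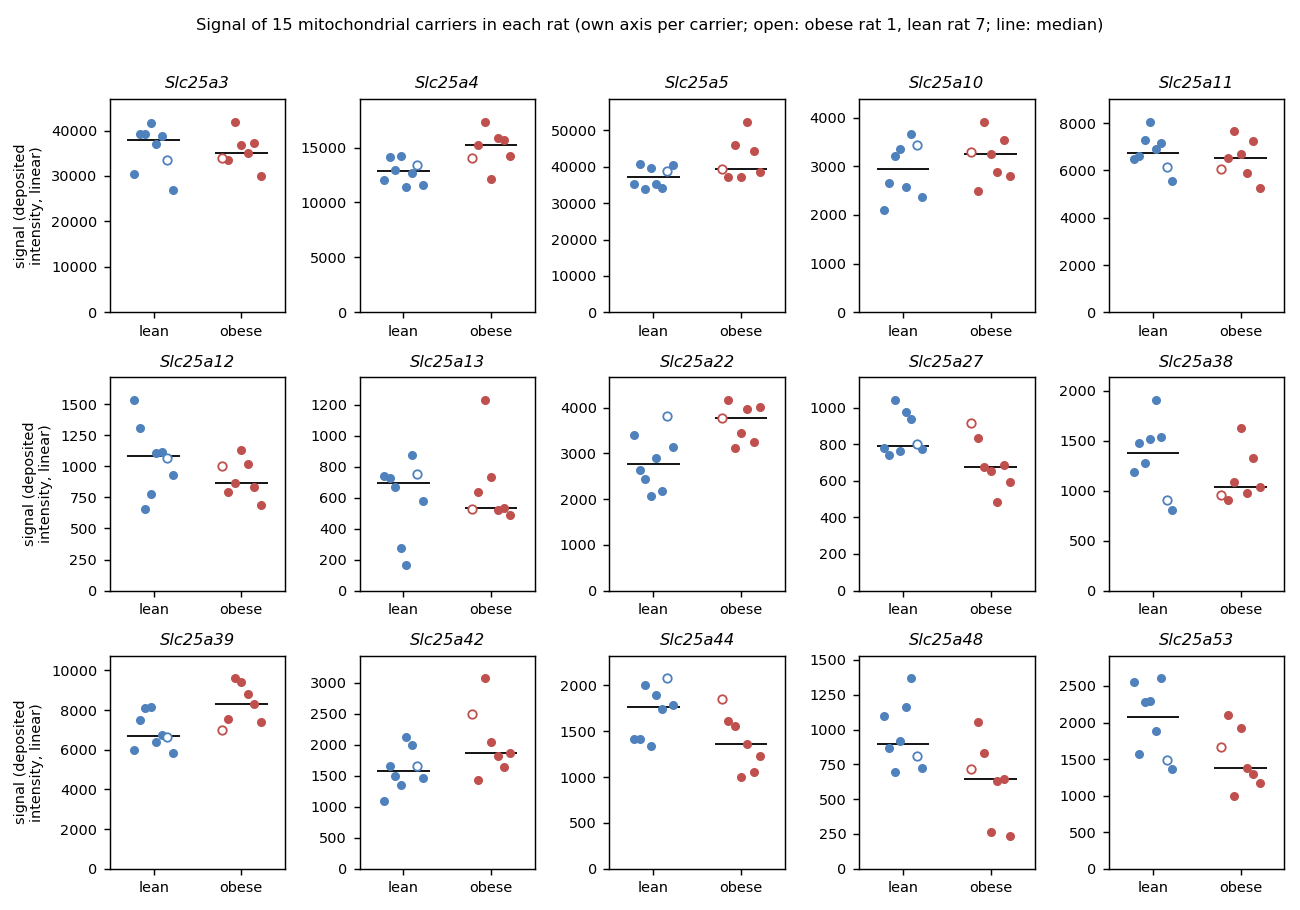
Deposited signal (linear intensity, y axis from 0, own scale per carrier) of 15 carriers in each of 8 lean and 7 obese rats; open circles are obese rat 1 and lean rat 7, and lines are group medians. The groups overlap in every panel, most obese rats lie high for Slc25a4, Slc25a22 and Slc25a39 and low for Slc25a27 and Slc25a53, and obese rat 3 stands out for Slc25a13.

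Several probe sets of one carrier gave a check within each array. Of 8 carriers with more than 1 probe set above the filter, 5 had differences of the same sign at all of them in each set of arrays. The mixed ones were Slc25a15, Slc25a36 and Slc25a46 with all arrays, and Slc25a15, Slc25a36 and Slc25a48 without the pair. The probe sets of a gene lay 0.10 apart at the median with all arrays and at most 0.64 apart, in Slc25a48. None of these 19 probe sets passed limma's adjusted p of 0.05 in either set, and at Slc25a10 the second probe set gave 0.23 and 0.27 beside 0.12 and 0.15.

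**Figure D3:**
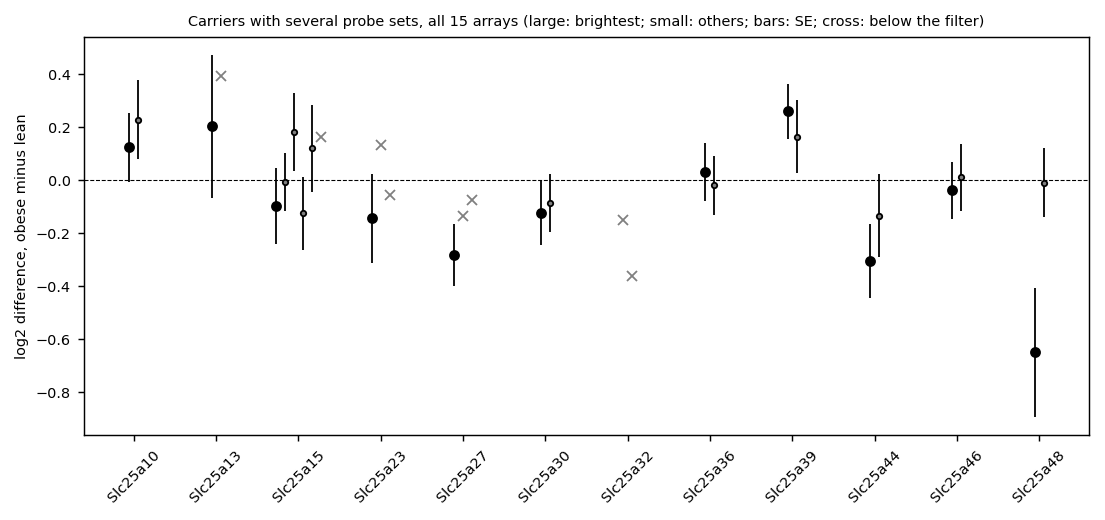
Log2 difference (obese minus lean, all 15 arrays, y axis) of each probe set of the 12 carriers with several, the brightest drawn large, with SE bars; crosses are probe sets below the filter, which were not tested. The probe sets of Slc25a48 lie 0.64 apart, the widest gap among probe sets above the filter.

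Rats differed from each other in the carriers as a set. The mean deviation of the 31 carriers from their 15-array means ran from -0.13 in obese rat 8 and lean rat 8 to 0.11 in obese rat 3. The 4 rats with the lowest Gapdh 3' to 5' log2 ratios, obese rats 6, 7 and 8 and lean rat 8, at 0.64, 0.51, 0.35 and 0.56, also had the 4 lowest means, from -0.13 to -0.04. In the same order, these rats had the 4 lowest median log2 signals of all probe sets, 9.599, 9.59, 9.649 and 9.708. Obese rat 5 was next at 9.711. The sizes did not run in step, since obese rat 7 had the lowest median but a carrier mean of -0.04, beside -0.13 in lean rat 8. Whether the low values were particular to the carriers was not tested. All these values share arrays and scaling, and the part of RNA quality in the carriers' levels was not tested.

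**Figure D4:**
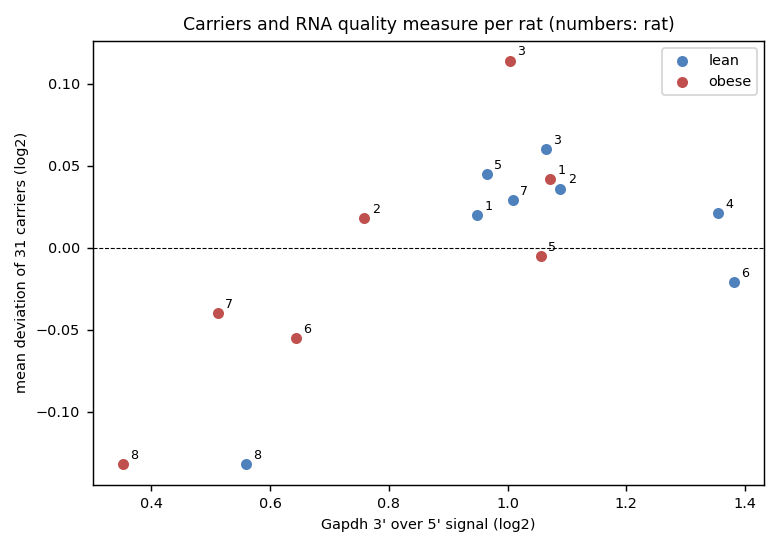
Mean deviation of the 31 carriers (log2, y axis) against the Gapdh 3' to 5' signal ratio (log2, x axis), with 1 point per rat labelled by its number. Obese rat 8 and lean rat 8 are lowest on both axes within their groups.

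The carriers stood beside 3 other lists of mitochondrial genes, of which none had a member past limma's adjusted p of 0.05 in either set. Other transport proteins of mitochondrial membranes (23 tested) had a median difference of 0.05 in both sets, against -0.02 in both with quantile normalization. Vdac1, the main pore of the outer membrane, had 7055 ± 799 (SD, n = 8) in lean and 9099 ± 1034 (SD, n = 7) in obese rats, so that obese minus lean was 0.36 ± 0.10 on the log2 scale (SE, limma adjusted p = 0.113) with all arrays and 0.42 ± 0.10 (adjusted p = 0.0624) without the pair. Mcub, which dampens calcium uptake, and Vdac2 had 0.40 ± 0.18 and 0.25 ± 0.10 (SE). Mcub was dim, with a mean log2 signal of 9.21 in lean rats, below the filter, and 9.61 in obese rats, above it. It was thus above the filter only through the obese rats, and was named for its small p in the same data. Enzymes that use the carried metabolites (16 tested) had medians of 0.06 and 0.08, with Gpd1 at 0.46 ± 0.14, Got1 at 0.37 ± 0.14 and Me1 at 0.25 ± 0.09 (SE) with all arrays. General mitochondrial proteins (17 tested) had medians of 0.06 and 0.08, or 0.00 and -0.01 with quantile normalization. Lonp1, Hspd1 and Opa1, taken for their small p, had log2 differences of 0.32, 0.19 and 0.22 with all arrays. Whether the carriers differ from these lists was not tested.

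**Figure D5:**
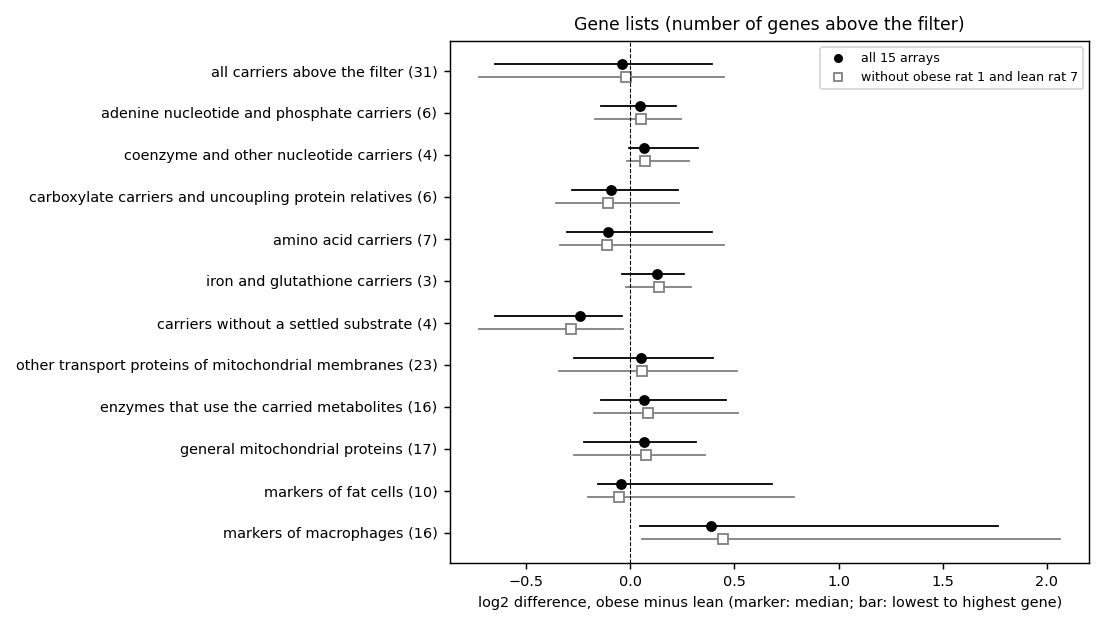
Log2 difference (obese minus lean, x axis) of the carriers, their role lists, 3 other mitochondrial lists and 2 marker lists, as the median (marker) and the lowest to highest gene (bar), for all 15 arrays (circles) and without the pair (squares). The medians of the mitochondrial lists lie near 0 and that of the macrophage markers at 0.39 with all arrays; signs of the medians near 0 depend on the scaling.

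The other 2 genes with a symbol starting with Slc25a, which the choice of members leaves out, had smaller limma p than any tested member in both sets. Slc25a1 ran from 5192 to 7484 (median 6557) in lean and from 7404 to 9502 (median 8542) in obese rats, and differed by 0.38 ± 0.09 on the log2 scale (SE, limma adjusted p = 0.105) with all arrays and by 0.44 ± 0.10 (adjusted p = 0.0453) without the pair. Slc25a20 had 0.40 ± 0.11 (SE, limma adjusted p = 0.123) with all arrays and 0.47 ± 0.12 (adjusted p = 0.0696) without the pair.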

How the data were processed

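Total RNA of epididymal fat was hybridised to Affymetrix RAE230_2 arrays. The authors deposited linear intensity values, which are MAS5 signals per the submitters' processing notes, and their 2% trimmed mean of about 1500 on each array shows the scaling. Background settings are not given in the sources used here, and the labels and design text differ on the extraction reagent and RNA input. Of 31099 probe sets, 57 controls were left out. Names came from the platform annotation, in which 20826 probe sets named 1 gene, 436 several and 9780 none.

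Signals were taken as log2(signal + 79.9), the pseudocount being the 10th percentile of all signals, which shrinks differences of dim probe sets. The filter kept those whose mean on this scale exceeded its 40th percentile (9.25), and they were tested with limma 3.58.1 (lmFit and eBayes, R 4.3.3), two-sided, with Benjamini-Hochberg adjustment over all 18625, in 7 obese and 8 lean arrays or 6 and 7 without the near-identical pair. The number of arrays limits the precision. Scripts were tested on simulated data. Ratios and array measures were compared by two-sided exact permutation over rats. Alternatives changed the pseudocount, filter, scaling, model, covariate, probe set rule and rats.

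Carriers given in full were the 10 with the smallest p without the pair and Slc25a3, Slc25a4, Slc25a5, Slc25a10, Slc25a11, Slc25a12, Slc25a13, Slc25a39 and Slc25a42; up to 3 genes were taken by p from each other mitochondrial list. Members and lists were chosen with earlier results of these data known. Marker lists for mesothelium, endothelium, skeletal muscle and red blood cells had median log2 differences of -0.27, -0.05, -0.01 and 0.09 with all arrays, and none of their genes passed. The fat cell markers had a median of -0.05. Promoter windows came from RefSeq (GRCr8).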

Additional observations from a re-analysis of the deposited data

Results flagged for a closer look

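For Slc25a13, the aspartate/glutamate carrier found in liver and other tissues, obese rat 3 stood far above the other obese rats, with a log2 value of 10.35 (signal 1229) against 9.16 to 9.66 in the other six. Of 32 groups examined in this way (the 15 carriers given in full and the Gapdh ratio, in each group with all arrays) this was the only one. Chance alone flags about 1 group in 20, so 1 in 32 is no more than chance gives. Over all probe sets, obese rat 3 correlated with every other array at only r = 0.908 to 0.922.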

How the results depend on the processing

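No carrier passed limma's adjusted p of 0.05 in any of 26 alternatives with all arrays or 24 without the pair; the lowest was 0.0989 and 0.0533, both Slc25a22 with median centring (log2 difference 0.49 and 0.57). With median centring the carriers with a positive difference went from 13 to 21 in both sets and their median to 0.063 with all arrays and 0.097 without the pair, while the median of all probe sets moved by 0.102 and 0.116. Adding the Gapdh ratio as a covariate put the median at 0.018 with all arrays. Of the 15 carriers given in full, the sign turned for Slc25a11 (median centring 0.036 and 0.047, Gapdh covariate 0.046 and 0.093) and for Slc25a3 (median centring 0.095 and 0.107, Gapdh covariate 0.131 and 0.185, replicate block 0.026 with all arrays; leaving out single rats -0.065 to 0.032 with all arrays and -0.078 to 0.040 without the pair). The sign turned in some alternative for 10 and 11 of the 16 other tested carriers. The carriers at an unadjusted p under 0.05 numbered 4 with quantile normalization, 3 with the Gapdh covariate and 4 averaged over probe sets with all arrays, and 4 with the Gapdh covariate and 3 averaged over probe sets without the pair. Rat numbers name different animals in each group, and the deviations of same-numbered rats correlated between -0.108 and 0.244 over 7 pairs. Rats of unlike number were not compared in this way, so these values cannot show whether the numbers pair rats. With the rat number as a replicate block the carriers at an unadjusted p under 0.05 numbered 4 with all arrays and 6 without the pair, and no carrier passed. Calls over all probe sets without the pair went from 189 (135 higher, 54 lower) to 389 with median centring (357 higher, 32 lower), 14 with the Gapdh covariate and 3 with the replicate block, and leaving out obese rat 1 alone gave 245 in place of 0. The cause of these changes was not tested. Carriers below the filter were not tested, and a missed threshold does not show that levels were alike.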
